A study of Mus musculus with 6 samples.

Results

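The genes described here mark the neural crest and the Schwann cells and autonomic neurons that derive from it: Sox10, Foxd3, Phox2a, Erbb3, Ednrb, S100b and Fabp7. They were chosen by name, with earlier results of these data known, and all 7 were found among the 54735 gene symbols counted in each library. RNA was sequenced from whole pancreas of mouse embryos at e16.5, in a mixed C57Bl6/129SV background. The 3 control samples carried the Neurog3:cre driver alone, and the 3 RARdn samples carried the same driver with RARdnfl/fl, so every embryo had the cre. Neurog3 is the transcription factor gene of endocrine progenitors, so the driver is aimed at those cells and not at the crest. The name RARdn is read here as a dominant-negative retinoic acid receptor, which the labels do not spell out. Each library is 1 sample of whole tissue, and the labels do not say whether embryos were pooled or shared a litter. In its description RARdn 1 has a leading number of its own, which differs from the one shared by RARdn 2 and 3, with no word on what these numbers mean. In such tissue, fewer cells of a type and less RNA per cell cannot be told apart.

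The neural crest is a population of migrating cells that leave the dorsal neural tube and give rise to peripheral neurons, glia and pigment cells. Crest cells reach the developing pancreas from outside and form its intrinsic neurons and the Schwann cells that come to surround the islets, and mouse mutants that lack them have been studied for their effect on beta cells. Sox10 and Foxd3 are transcription factor genes that keep crest cells and glial precursors in their state. Phox2a belongs to the programme of autonomic neurons. Erbb3 and Ednrb are receptors for neuregulin and endothelin, signals that crest cells and their glia need. S100b, a calcium-binding protein, and Fabp7, a fatty acid-binding protein of glial precursors, are used as glial markers.

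Foxd3 and Fabp7 had the highest fold changes of the 7 genes, so the 250 bases before their start sites are shown. They come from RefSeq (GRCm38.p6), whose promoter table held 5 of the 7 genes and not Sox10 or Erbb3. The starts are those of RefSeq, which differ for some genes from the positions given below. The Ednrb stretch lies within the span given for that gene, and the Fabp7 stretch runs into the Fabp7 span. Capitals mark the hexamers that retinoic acid response elements are built from, searched on both strands: the letters AGGTCA, with AGTTCA as a variant, with GGGTCA as a variant, and with GGTTCA as a variant. Foxd3 is read on the plus strand of chr4:99656049-99656298, and Fabp7 on the plus strand of chr10:57784673-57784922.
Foxd3: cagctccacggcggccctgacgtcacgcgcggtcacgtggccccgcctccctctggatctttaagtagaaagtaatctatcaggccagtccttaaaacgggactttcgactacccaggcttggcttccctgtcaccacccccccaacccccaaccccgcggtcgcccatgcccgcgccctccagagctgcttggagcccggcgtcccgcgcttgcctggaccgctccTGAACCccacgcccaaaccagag
Fabp7: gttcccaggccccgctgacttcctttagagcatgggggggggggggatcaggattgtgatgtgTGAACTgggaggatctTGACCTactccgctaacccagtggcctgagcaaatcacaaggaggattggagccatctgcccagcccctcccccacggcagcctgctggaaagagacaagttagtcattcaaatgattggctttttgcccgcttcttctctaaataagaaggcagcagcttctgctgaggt
Foxd3 held 1 hexamer, 23 bases before the start, and Fabp7 held 2, at 187 and 171 bases before it, all on the opposite strand. None was found before Ednrb, Phox2a or S100b. Of all 32851 promoters of this length in the table, 38.6% held at least 1 such hexamer. A pair of hexamers in the same direction and 1, 2 or 5 bases apart was in none of the 5 and in 0.426% of all. Letters read by SOX proteins (ACAAAG, with ACAATG as a variant, either strand) were in none of the 5 and in 25.2% of all. These matches describe letters only, and these files do not measure binding.

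Counts in genes ranged from 38572573 to 44735721 in controls and from 35256531 to 52015498 in RARdn libraries. Levels are given as CPM (counts relative to library size) after TMM scaling, which sets libraries against each other by the bulk of their genes; its factors were 0.975 to 1.004 in controls and 1.22, 0.975 and 0.862 in RARdn 1, 2 and 3. Acinar enzyme genes summed to 177466 to 193775 CPM in controls and to 60240, 229419 and 317679 CPM in RARdn 1, 2 and 3. Liver genes (Alb, Afp, Apoa1, Ahsg and Serpina1a) summed to 19.6 to 25.6 CPM in controls and to 1194, 274 and 27.6 CPM in RARdn 1, 2 and 3. Gut epithelial genes were at or below 4.96 CPM in sum. By Xist and Ddx3y, control 1 and 3 were female and the other libraries male. The labels give no sequence by which the RARdn allele could be read. Transcripts of Gt(ROSA)26Sor, a locus often used to carry floxed alleles, fell from 3.79 ± 0.932 to 0.645 ± 0.0413 CPM (SD, n = 3 each; edgeR log2 -2.56, adjusted p = 0.00543), with no overlap between the groups. The receptor gene Rara was higher in RARdn (32.8 ± 1.29 to 45.7 ± 1.70 CPM, edgeR adjusted p = 0.0256).

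All 7 genes passed the filter on low counts and were compared between 3 RARdn and 3 control libraries with edgeR's quasi-likelihood test. None of the 7 was called, which here means an adjusted p under 0.05, a threshold that 4.02% of the 19070 genes tested passed, 1.37% as higher in RARdn. The fold changes of 6 genes were above 1 and that of Erbb3 was close to 1. At an unadjusted p under 0.05 there were 5 of the 7, against 22.2% of all genes tested. The median log2 fold change was 0.76 over the 7 genes and 0.00051 over all genes tested. DESeq2 called 4 of the 7 higher (Sox10, Foxd3, Ednrb and Fabp7), where it called 3% of 33890 genes higher, and limma-voom called 0, with 1.42% of all genes called higher. edgeR without a filter on low counts called the same 4, with 3.31% of 33909 genes called higher. In 5 of the 7 genes every RARdn library was above every control, as in 13.9% of all genes tested. In CPM without TMM factors this held for Foxd3 alone of the 7, and for 8.13% of all genes. As the 7 were chosen with earlier results of these data known, the shares over all genes serve as description only.

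**Figure D1:**
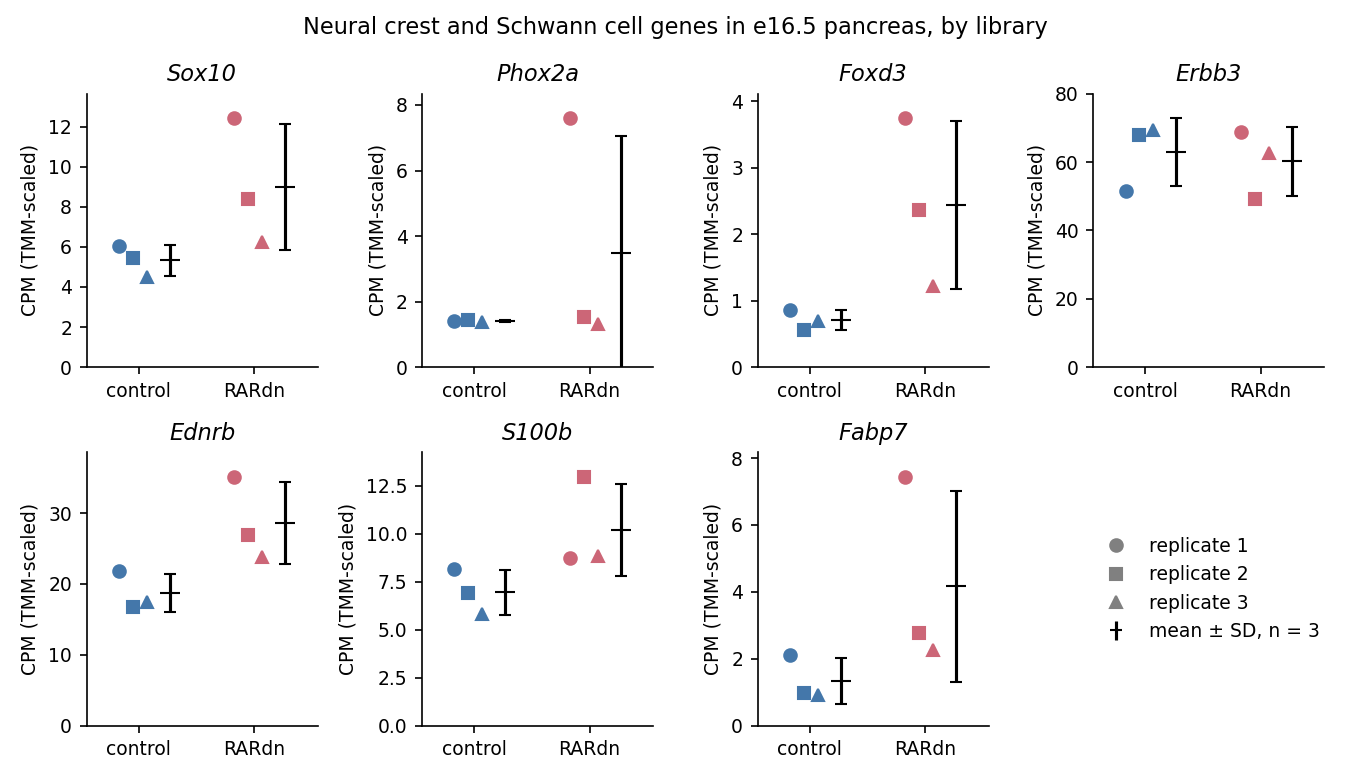
TMM-scaled CPM of each of the 7 genes in every library, with the mean and SD of each group (n = 3) beside the points. RARdn 1 is the highest library for Sox10, Phox2a, Foxd3, Ednrb and Fabp7, Erbb3 overlaps between the groups, and the lower SD bar of Phox2a in RARdn would pass below 0.

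The transcription factors of the crest were low in whole pancreas. Sox10 (ENSMUSG00000033006, chromosome 15, 79154908 to 79165240, GRCm38) had 231, 245 and 194 counts in control 1, 2 and 3 and 726, 425 and 189 counts in RARdn 1, 2 and 3. After scaling the controls were at 6.03, 5.46 and 4.49 CPM and the RARdn libraries at 12.4, 8.38 and 6.22 CPM. The lowest RARdn library lay just above the highest control, and below it in CPM without TMM factors (5.36 against 5.99). The means were 5.33 ± 0.777 and 9.01 ± 3.14 CPM (log2 fold change 0.76, SE 0.25, 95% interval 0.18 to 1.34, adjusted p = 0.129).

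Foxd3 (ENSMUSG00000067261, chromosome 4, 99656299 to 99658622) came closest to the threshold. It had 33, 25 and 30 counts in controls, or 0.861, 0.557 and 0.695 CPM. In RARdn 1, 2 and 3 it had 219, 120 and 37 counts, or 3.74, 2.37 and 1.22 CPM. All RARdn libraries were above all controls, with a wide spread among the RARdn libraries. The means were 0.704 ± 0.152 and 2.44 ± 1.26 CPM, with a fitted fold of 3.50 (log2 1.81, SE 0.42, 95% interval 0.85 to 2.77, adjusted p = 0.0526). With so few counts the 95% Poisson interval of RARdn 3, 0.857 to 1.68 CPM, overlapped that of control 1, 0.593 to 1.21 CPM (counting error only). A predicted gene on the same strand, Gm23366, overlaps the Foxd3 exon.

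Phox2a (ENSMUSG00000007946, chromosome 7, 101818313 to 101822726) was set apart by 1 library. It had 54, 65 and 59 counts in controls and 444, 78 and 40 counts in RARdn 1, 2 and 3. The controls were thus at 1.41, 1.45 and 1.37 CPM and the RARdn libraries at 7.59, 1.54 and 1.32 CPM. RARdn 1 was far above the other libraries, which lay close together whatever their group. The log2 fold change was 1.32 (SE 0.62, 95% interval -0.087 to 2.73, adjusted p = 0.251), and 0.051 without RARdn 1 (adjusted p = 0.941). Exons of Inppl1 on the other strand overlap Phox2a, and the strand setting of the counting is not given. Reads set aside as ambiguous between genes were 4.87% to 5.49% in the libraries. Whether reads of this pair were set aside or given to 1 of the genes is not known. Inppl1 itself was at 109 to 118 CPM in all 6 libraries.

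The receptors were the most abundant of the 7 in CPM. Erbb3 (ENSMUSG00000018166, chromosome 10, 128567523 to 128589652), which is also made by epithelial cells, was at 51.6, 67.9 and 69.3 CPM in controls and at 68.8, 49.2 and 62.7 CPM in RARdn 1, 2 and 3. The groups overlapped over almost their whole range. The means were 62.9 ± 9.87 and 60.2 ± 10.02 CPM (log2 -0.063, SE 0.16, adjusted p = 0.850), with a 95% interval of -0.42 to 0.29 for the log2 fold change. Its sign turned without control 3 (0.016) and without RARdn 2 (0.069). Epithelial markers (Epcam, Cdh1, Krt8, Krt18, Krt19 and Cldn7) summed to 1971 to 2245 CPM in controls and to 1299, 1294 and 2155 CPM in RARdn 1, 2 and 3, none of the 6 called by edgeR, and their part in the Erbb3 level was not tested.

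Ednrb (ENSMUSG00000022122, chromosome 14, 103814625 to 103844402) was at 21.8, 16.8 and 17.5 CPM in controls and at 35.1, 26.8 and 23.9 CPM in RARdn 1, 2 and 3. Every RARdn library was above every control, by a small margin for RARdn 3. The means were 18.7 ± 2.73 and 28.6 ± 5.83 CPM, with a fitted fold of 1.53 (log2 0.61, SE 0.17, 95% interval 0.23 to 0.996, adjusted p = 0.0801). Ednrb is also made by cells of the mesenchyme and vessel wall. Endothelial genes summed to 470 to 562 CPM in controls and 500 to 535 CPM in RARdn libraries. Mesenchyme and pericyte genes summed to 4724 to 6492 CPM in controls and to 8057 to 9117 CPM in RARdn libraries. Of the 10, edgeR called 3 higher and none lower, where it called 1.37% of all genes tested higher. The part of the mesenchyme in the Ednrb difference was not tested.

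The glial markers S100b and Fabp7 were both above the controls in all RARdn libraries after scaling, in a different order. S100b (ENSMUSG00000033208, chromosome 10, 76253853 to 76261159) was at 8.14, 6.91 and 5.81 CPM in controls and at 8.74, 12.96 and 8.85 CPM in RARdn 1, 2 and 3. It was the one of the 7 that peaked in RARdn 2, and RARdn 1 lay only just above control 1. The log2 fold change was 0.55 (SE 0.21, 95% interval 0.083 to 1.02, adjusted p = 0.163). The gene lies within the span of Dip2a on the other strand, with no exon in common.

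Fabp7 (ENSMUSG00000019874, chromosome 10, 57784881 to 57788450) had 81, 44 and 39 counts in controls, or 2.11, 0.980 and 0.903 CPM. RARdn 1, 2 and 3 had 435, 141 and 69 counts, or 7.44, 2.78 and 2.27 CPM. RARdn 1 stood far above the rest and RARdn 3 only just above control 1. The means were 1.33 ± 0.678 and 4.16 ± 2.85 CPM, with a fitted fold of 3.16 (log2 1.66, SE 0.51, 95% interval 0.49 to 2.83, adjusted p = 0.106).

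RARdn 1 carried the highest level of 5 of the 7 genes, where it was the highest library for 22.3% of all genes tested. In RARdn 1, 2 and 3 the median of the 7 genes lay 1.22, 0.65 and 0.35 log2 units above the control mean, against 0.0056, 0.0091 and -0.0089 for all genes tested. The summed liver genes fell in the same order (1194, 274 and 27.6 CPM), and the summed acinar genes rose in it (60240, 229419 and 317679 CPM). The part of carried-over tissue or of the acinar share in the order of the 7 genes was not tested. Without RARdn 1 the log2 fold changes of Sox10, Foxd3, Ednrb and Fabp7 were 0.49, 1.39, 0.47 and 0.96, and that of S100b was 0.68. Their adjusted p ranged from 0.0755 for Foxd3 to 0.195 for Sox10. RARdn 3 was the RARdn library nearest to the controls by the median of the 7 genes, though not for S100b. Without it edgeR called 4 of the 7, Sox10, Foxd3, Ednrb and Fabp7 (log2 0.97, 2.12, 0.73 and 1.95, adjusted p = 0.0260, 0.0139, 0.0258 and 0.0374), with 6.98% of 20109 genes called higher. With a term for sex, for which control 2 was the only male control, none of the 7 was called (lowest adjusted p = 0.317, Foxd3), while the log2 fold changes were 0.73 for Sox10, 2.14 for Foxd3, 0.77 for Ednrb, 2.09 for Fabp7, 0.56 for S100b and 1.28 for Phox2a. That fit called 0.0262% of all genes higher.

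**Figure D2:**
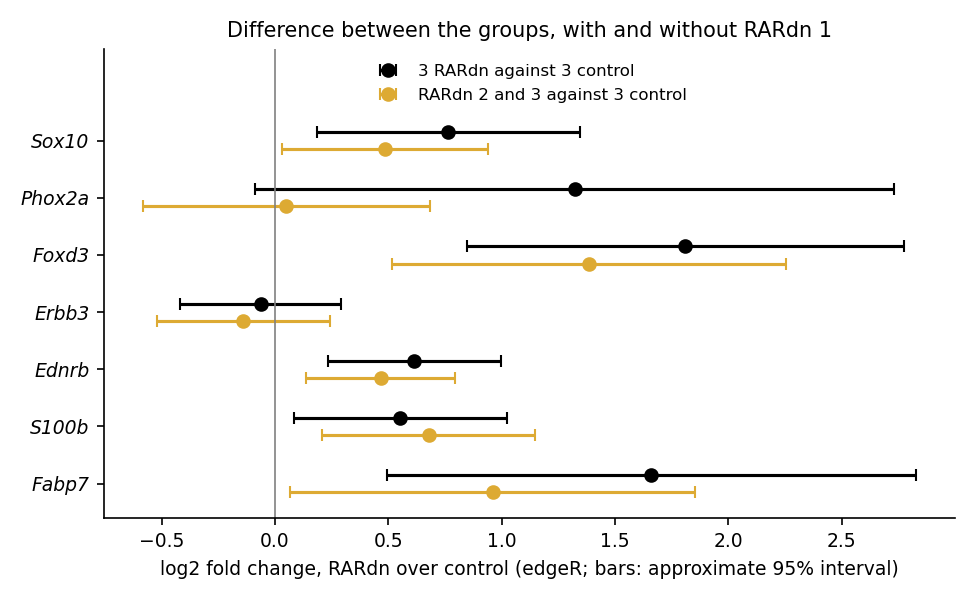
Log2 fold change of RARdn over control for the 7 genes from edgeR, with an approximate 95% interval, for all 6 libraries and without RARdn 1. Without that library Phox2a moves from 1.32 to 0.051 and Fabp7 from 1.66 to 0.96, and Erbb3 lies near 0 in both.

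Levels of different genes were compared as CPM per kilobase of exon (RPKM). The lengths include the parts of Phox2a and Foxd3 that other genes overlap, where reads may have been set aside. In controls Erbb3 led with 10.5 ± 1.64 RPKM, followed by S100b (4.69 ± 0.786) and Ednrb (4.39 ± 0.639), whose ranges overlapped. Sox10 (1.75 ± 0.255) and Fabp7 (1.07 ± 0.543) came next and overlapped in range. Phox2a (0.692 ± 0.0202) lay just below the range of Fabp7, and Foxd3 was the lowest at 0.303 ± 0.0656 RPKM. In RARdn libraries the order was the same but for Fabp7 (3.33 ± 2.28), which stood before Sox10 (2.95 ± 1.03) with overlapping ranges. Phox2a (1.71 ± 1.75) and Foxd3 (1.051 ± 0.544) were the lowest by mean and overlapped each other.

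Ratios of counts to Sox10 within a library ask whether the genes kept their proportions. The ratios given by library are of plain counts, while the log2 differences and tests use CPM with 0.1 added, which draws ratios of low genes toward 0 on the log2 scale. Ednrb per Sox10 count was 3.62, 3.08 and 3.90 in controls and 2.83, 3.20 and 3.84 in RARdn 1, 2 and 3. The groups overlapped, with RARdn 1 below every control and a mean log2 difference of -0.10 (exact permutation p = 0.6). Foxd3 per Sox10 count was 0.143, 0.102 and 0.155 in controls and 0.302, 0.282 and 0.196 in RARdn. It was the only one of the 6 ratios that did not overlap between the groups (mean log2 difference 0.85, 2-sided exact permutation p = 0.1, the smallest that 3 against 3 allows; 0.4 after adjustment over the 6 ratios). The Foxd3 difference was 0.96 in plain count ratios, an alternative added after seeing the data, and 0.54 with 0.5 CPM added, with the same exact permutation p of 0.1 in both. Erbb3 per Sox10 count was 8.55, 12.4 and 15.4 in controls and 5.55, 5.87 and 10.1 in RARdn 1, 2 and 3. RARdn 3 lay within the control range and the other RARdn libraries below it (log2 difference -0.76, exact permutation p = 0.2). S100b per Sox10 count was 1.35, 1.27 and 1.29 in controls and 0.704, 1.55 and 1.42 in RARdn. RARdn 1 was lower than all controls in this ratio and RARdn 2 and 3 higher, so that the log2 difference of -0.17 turned to 0.19 without RARdn 1. Phox2a per Sox10 count was 0.612 in RARdn 1, 0.184 and 0.212 in RARdn 2 and 3, and 0.234, 0.265 and 0.304 in controls; its log2 difference of 0.094 turned to -0.43 without RARdn 1. Fabp7 per Sox10 count overlapped through control 1 (0.351, against 0.332 in RARdn 2; log2 difference 0.77, exact permutation p = 0.2).

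**Figure D3:**
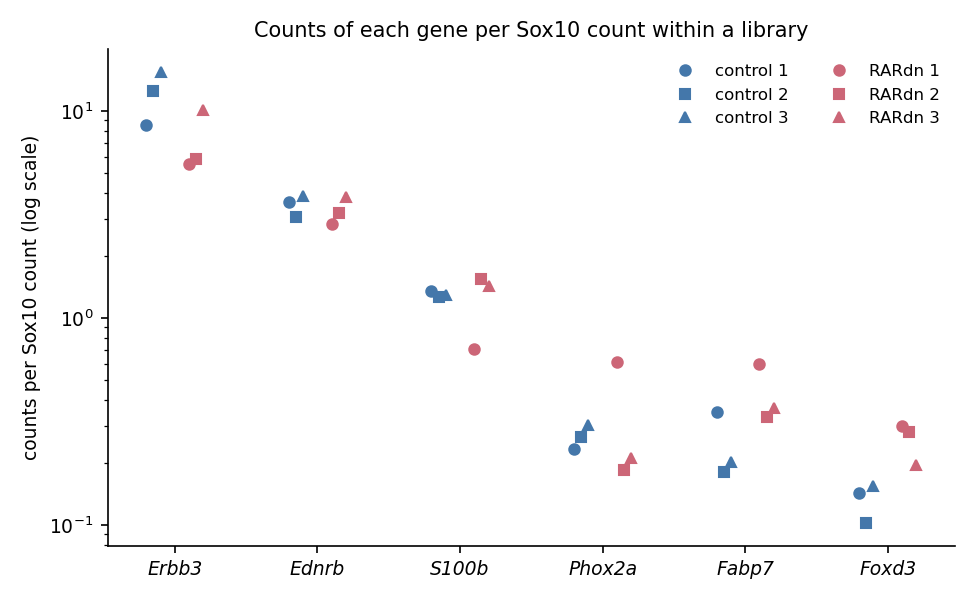
Counts of 6 genes per Sox10 count in each library, on a log axis, with controls to the left and RARdn libraries to the right for each gene. Foxd3 is the ratio without overlap between groups (0.102 to 0.155 in controls, 0.196 to 0.302 in RARdn), and RARdn 1 stands apart in S100b and Phox2a.

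Other Schwann cell and crest genes were described from a list of 26, of which 21 were tested. edgeR called 3 higher and none lower, 18 of the 21 had a log2 fold change above 0, and the median was 0.57. Of all genes tested, 1.37% were called higher and 50.0% were above 0, with a median of 0.00051. The lowest adjusted p was that of Ngfr, the low-affinity neurotrophin receptor of crest cells and immature Schwann cells, which pancreatic mesenchyme can also make. It was at 7.33, 5.44 and 6.53 CPM in controls and at 26.1, 20.04 and 18.4 CPM in RARdn 1, 2 and 3. The groups were far apart, and the rise, 3.35-fold in the fit (log2 1.74, SE 0.18, adjusted p = 0.00383) was called without any 1 library and with the term for sex (highest adjusted p = 0.0402). Mag, a myelin-associated glycoprotein gene, rose from 0.245 ± 0.00988 to 0.963 ± 0.144 CPM (log2 1.96, adjusted p = 0.0217). It was not called without any 1 control or without RARdn 2 (adjusted p from 0.0609 to 0.112) or with the term for sex (0.287). Snai2, a transcription factor gene of migrating crest and of mesenchyme, rose from 10.3 ± 1.11 to 18.6 ± 4.61 CPM (log2 0.87, adjusted p = 0.0438). It was called without RARdn 3 (0.0123) and not without any 1 of the other libraries (0.0515 to 0.172), nor with the term for sex (0.294) or in CPM without TMM factors (0.108), with upper quartile scaling (0.0511) or with a filter of at least 1 CPM in 3 libraries (0.0693). The mesenchyme genes, whose summed levels are given with Ednrb, were also higher in RARdn, and their part in Ngfr and Snai2 was not tested.

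Genes of autonomic and enteric neurons were described from a list of 25, of which 23 were tested. edgeR called 2 higher and none lower, 22 of the 23 had a log2 fold change above 0, and the median was 0.85. Over all genes tested, 1.37% were called higher and 50.0% were above 0. Hand1, a transcription factor gene of sympathetic neurons and also of mesenchyme, was at 0.162 to 0.261 CPM in controls and at 5.23, 1.66 and 0.592 CPM in RARdn 1, 2 and 3, a log2 fold change of 3.60 (SE 0.76, adjusted p = 0.0406). It was not called without any 1 control or without RARdn 2 (0.0801 to 0.153), with the term for sex (0.350) or by limma-voom, and its log2 fold change was 2.47 without RARdn 1 (adjusted p = 0.0445).

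RARdn 1 was the highest library for 18 of these 23 neuronal genes, against 22.3% of all genes tested. In it 3 genes of noradrenergic cells stood out, named after their values were seen. Dbh, the enzyme that makes noradrenaline, had 679 counts in RARdn 1 and 1 to 5 counts in each other library, and was too low in the others to be tested. Th, the enzyme that starts catecholamine synthesis, was at 10.2 CPM in RARdn 1 and at 1.03 to 2.27 CPM in the other libraries. Tfap2b, a crest and sympathetic transcription factor gene, had 147 counts in RARdn 1 and at most 1 elsewhere. Pnmt, the enzyme of adrenaline-making chromaffin cells, had 0 counts in RARdn 1. The 4 chromaffin genes, which include Pnmt, Th and Dbh, summed to 24.5, 2.96 and 3.39 CPM in RARdn 1, 2 and 3. In controls they summed to 3.63 to 4.33 CPM. The 4 adrenal cortex genes summed to 4.92 CPM in RARdn 1, within the 4.91 to 6.29 CPM of the controls. The part of carried-over adrenal or ganglion tissue in these levels was not tested. The median of the neuronal list lay 1.61, 0.54 and 0.49 log2 units above the control mean in RARdn 1, 2 and 3. The share of these neuronal transcripts in the differences of Phox2a, Foxd3 and Sox10 was not tested. Nor was that of the endocrine genes (Chga, Chgb, Scg2, Pax6, Neurod1 and Isl1), which summed to 479 to 557 CPM in controls and to 827, 624 and 519 CPM in RARdn 1, 2 and 3.

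**Figure D4:**
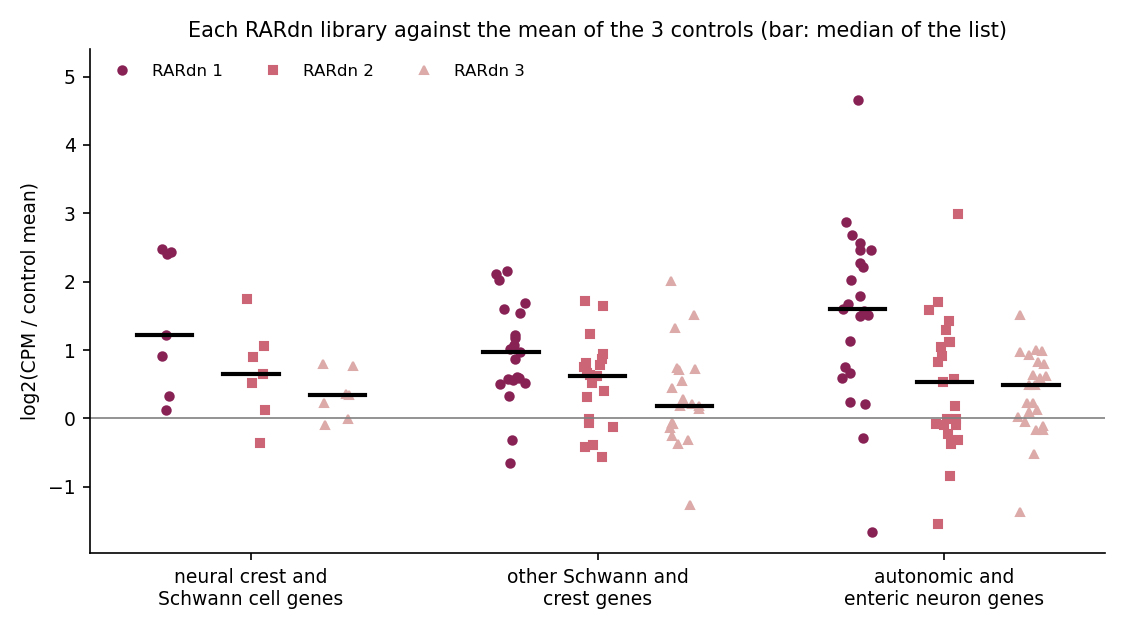
Log2 of CPM over the control mean for each tested gene of 3 lists in RARdn 1, 2 and 3, with the median of each list as a bar. The medians in RARdn 1 are 1.22 for the 7 genes, 0.97 for other Schwann and crest genes and 1.61 for autonomic and enteric neuron genes, and each is higher there than in RARdn 2 and 3.

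The partners of the receptors were described next. Neuregulins bind Erbb3, which has little kinase activity of its own and signals together with Erbb2. Of 13 ligands and receptors of the ErbB family other than Erbb3, 10 were tested, with a median log2 fold change of 0.16. Of these 1 was called higher and none lower, where 1.37% of all genes tested were called higher. The gene called was Erbb2, which rose from 27.1 ± 1.92 to 40.3 ± 5.17 CPM with no overlap (by library 27.7, 24.99 and 28.7 CPM in controls, 45.6, 40.1 and 35.2 CPM in the RARdn libraries), a log2 fold change of 0.57 (SE 0.12, adjusted p = 0.0388). It was called without RARdn 3 (0.0151) and not without any 1 of the other libraries (0.0511 to 0.177), nor with the term for sex (0.228), without TMM factors (0.168) or with at least 1 CPM in 3 libraries (0.0629). Exons of Mien1 on the other strand overlap it. The next most abundant was the ligand Egf, at 21.0 ± 3.49 and 16.8 ± 8.87 CPM (adjusted p = 0.609). Ereg had no count in any library.

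Of 6 other endothelin genes 5 were tested. edgeR called none, with 1 at an unadjusted p under 0.05, as had 22.2% of all genes tested. That gene was Ednra, the second endothelin receptor, which mesenchyme and smooth muscle make. It was at 11.8, 9.31 and 8.84 CPM in controls and at 20.1, 16.53 and 13.99 CPM in RARdn 1, 2 and 3, a log2 fold change of 0.76 (SE 0.18, adjusted p = 0.0510). DESeq2 and limma-voom called it higher (adjusted p = 0.00296 and 0.0458), and it was called in 8 of 17 alternatives. By edgeR it was not called with the term for sex (0.321), without TMM factors (0.143) or with upper quartile scaling (0.0597). Nor was it called with at least 1 CPM in 3 libraries (0.0755), without any 1 control (0.0596 to 0.198) or without RARdn 1 or 2 (0.0651 and 0.115). Ece1, the enzyme that releases active endothelin, was at 131 ± 3.42 and 114 ± 8.33 CPM (log2 -0.21, adjusted p = 0.275). Edn3, the ligand that crest cells of the gut need, was at 4.12 to 6.11 CPM in controls and at 5.07 to 6.67 CPM in RARdn libraries (adjusted p = 0.590). Pigment cells, another crest derivative that makes Ednrb, were described by 7 genes. Of these Tyr, Tyrp1 and Mlana had at most 1 count in any library, and Dct, Mitf, Pmel and Kit were tested, with log2 fold changes below 0 and none called. Dct, a pigment enzyme gene named after its values were seen, was at 4.78, 5.64 and 4.58 CPM in the controls, against 3.81, 1.89 and 1.78 CPM in RARdn 1, 2 and 3. Every RARdn library was below every control after scaling (log2 -0.99, edgeR adjusted p = 0.108). In CPM without TMM factors the groups overlapped, with RARdn 1 at 4.65 and control 3 at 4.47 CPM.

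The 5 genes whose levels over the 6 libraries ran most like the mean standardised level of the 7 genes, among 15026 others with a mean of at least 1 CPM, were Ephb3, Npl, Rad9a, Astn2 and Cand2, with Pearson's r from 0.992 to 0.993. They were picked as the highest of many, so r is a description. None of the 5 passed edgeR's test, with log2 fold changes from 0.27 for Rad9a to 0.79 for Astn2. Ephb3, an ephrin receptor, was at 26.9, 23.9 and 23.4 CPM in controls and at 41.0, 31.3 and 29.4 CPM in RARdn 1, 2 and 3. Astn2, a neuronal adhesion gene, was at 2.30, 1.96 and 2.04 CPM and at 4.77, 3.33 and 2.70 CPM in the same order. Both were highest in RARdn 1, which follows from their choice, since the mean standardised level of the 7 genes peaked there.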

How the data were processed

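RNA of 6 whole pancreata (3 control, 3 RARdn) was measured. The authors deposited raw read counts per gene symbol, 1 table per library. The builds mm10 and GRCm38 and the tools HISAT2, HTSeq, cutadapt, DESeq2, FastQC and bedtools are named per the submitters' processing notes. Their versions, the annotation and the strand setting: not given in the sources used here. The 5 summary lines (25.4% to 31.5% of reads) were left out of library sizes and tests. Among them, reads outside genes were 7.60% to 8.99% in controls and 5.30%, 4.84% and 2.90% in RARdn 1, 2 and 3. Genes with a count numbered 27828 to 28517 in controls and 27147, 26437 and 23995 in RARdn 1, 2 and 3. The part of these group differences in the levels of low-count genes was not tested.

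Genes were tested across all genes with edgeR 4.0.16 (R 4.3.3): filterByExpr, TMM, the quasi-likelihood test (2-sided) with group as the only term, and Benjamini-Hochberg adjustment over 19070 genes. SE was taken from the F statistic as log2 fold change divided by its root. Alternatives used DESeq2 1.42.0 and limma 3.58.1, other scalings and filters, a replicate block, a term for sex and leaving out each library. Symbols were matched to GENCODE M21 for gene identifiers, positions, overlaps and the exon lengths behind RPKM. Ratios to Sox10 (0.1 CPM added) were compared by exact permutation. On simulated data of this comparison with 18657 genes tested, 18.5%, 70.8% and 87.3% of genes changed by 1.5, 2 and 4-fold were recovered. The simulated spread followed the trend with abundance and was the same in both groups. Chi-square per degree of freedom between replicate libraries was above counting noise for every pair. It was 15.2 to 27.4 between controls and 99.0 to 447 between RARdn libraries. The recovered shares may thus be too high for genes that vary widely among RARdn libraries. Since no source says the samples are separate embryos, p-values cover the sample spread alone, part of which may be technical.

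The genes and lists were chosen with earlier results of these data known. Named were the 7 genes, in each of the 4 pathway lists up to 4 called genes in order of p filled to 2 by abundance, and the 5 genes most alike. Intervals cover counting error only where so stated. Results of some list genes are not reported here.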

Additional observations from a re-analysis of the deposited data

How the results depend on the processing

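The 7 genes were re-tested under 17 alternatives, of which CPM without TMM factors was chosen after seeing the data. Sox10, Phox2a, Foxd3, Ednrb, S100b and Fabp7 stayed above 0 in all 17, Phox2a and S100b were called in none, and Erbb3 was called in none and turned sign in 2 (0.016 without control replicate 3, 0.069 without RARdn replicate 2). edgeR called 767 genes in all, 2346 without a filter on low counts, 217 with at least 1 CPM in 3 libraries, 2276 by DESeq2, 61 with the term for sex, 474 without TMM factors and 100 to 2980 on leaving out 1 library (fewest without control 2, most without RARdn 3). Of the 7, 0 were called by edgeR (5 at an unadjusted p under 0.05), 1 with RLE scaling, without the acinar genes or with robust dispersions (1.5%, 1.89% and 1.59% of all genes called higher), 4 without a filter or by DESeq2 (3.31% and 3%), 3 with the replicate block (1.68%) and 0 to 4 on leaving out 1 library. Foxd3 was called with RLE scaling (log2 1.80), without the acinar genes (1.82), without a filter (1.83), by DESeq2 (1.81), with the block (1.70), with robust dispersions (1.81) and without RARdn 3 (range on leaving out 1 library 1.39 to 2.12). Without a filter, by DESeq2 and with the block, Ednrb was called at 0.64, 0.61 and 0.60 and Fabp7 at 1.69, 1.65 and 1.56. Sox10 was called at 0.79 without a filter and 0.76 by DESeq2. On leaving out 1 library Sox10 ranged from 0.49 to 0.97, Ednrb from 0.47 to 0.74, Fabp7 from 0.96 to 2.15, S100b from 0.34 to 0.68, Phox2a from 0.051 to 1.70 and Erbb3 from -0.19 to 0.069. The ratios to Sox10 ranged on leaving out 1 library from -0.43 to 0.41 (Phox2a) and from -0.38 to 0.19 (S100b), both turning sign only without RARdn 1. Egf ranged from -0.80 to 0.017, turning sign without RARdn 1. Cause was not tested. The replicate numbers of the titles share no stated source, and the deviations of same-numbered libraries from their group means correlated at 0.013, -0.014 and 0.126, so the block is reported here only. Foxd3 had 25 to 33 counts in a control, and the Poisson intervals of RARdn 1, 2 and 3 (3.26 to 4.27, 1.96 to 2.83 and 0.857 to 1.68 CPM) did not overlap. The log2 difference of Fabp7 per Sox10 was 0.77, 0.58 with 0.5 CPM added and 0.84 without any; the direction of all 6 ratios was the same under both.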
